A study of Mus musculus with 15 samples.

Results

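The 9 genes described here encode the enzymes that make serine from glucose and pass its side-chain carbon into the folate pool. They were taken as the rows of the deposited count table whose symbol equals Phgdh, Psat1, Psph, Shmt1, Shmt2, Mthfd1, Mthfd1l, Mthfd2 or Aldh1l2. All 9 were found among the 24030 symbols of the table, and all 9 were among the 15083 genes that passed a filter on low counts. They fall into 3 serine synthesis enzymes, 2 cytosolic folate enzymes and 4 mitochondrial folate enzymes.

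Serine is built from the glycolytic intermediate 3-phosphoglycerate by PHGDH, PSAT1 and PSPH acting in that order. Serine hydroxymethyltransferase, SHMT1 in the cytosol and SHMT2 in mitochondria, then splits serine into glycine and a folate-bound carbon. The folate-bound carbon is oxidised to formate by MTHFD2 and MTHFD1L in mitochondria, or carried through the reverse steps by the trifunctional cytosolic enzyme MTHFD1, and it feeds purine, thymidylate and methionine synthesis. ALDH1L2 is the mitochondrial branch that burns the formyl group to carbon dioxide while making NADPH. MTHFD2 is best known from embryonic, transformed and activated immune cells, and its gene, with the serine synthesis genes, is a textbook target of the transcription factor ATF4.

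The tissue was brown adipose tissue (BAT), the fat depot in which the uncoupling protein UCP1 turns fuel into heat. Bulk RNA was sequenced from 3 KO and 4 WT samples of mice housed at 29 °C, and from 4 KO and 4 WT samples of mice housed at room temperature, in each case for 8 weeks. KO stands for BAT-specific DJ-1 knockout (labelled BDJ1KO), and WT for the flox mice used as controls. DJ-1 is a redox-sensitive protein encoded by Park7. The sources used here give no Cre driver, age, sex or strain. A temperature of 29 °C is close to thermoneutrality for a mouse, and room temperature is a mild cold load. Whether each library came from its own mouse is not stated, and p-values reflect library-to-library spread only. In bulk tissue, fewer cells of a type and less RNA per cell cannot be told apart.

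The unit of level is CPM, a gene's counts relative to the library total as scaled by TMM, and effects are given as log2 fold change ± SE from edgeR's quasi-likelihood test with Benjamini-Hochberg adjustment over all genes tested. A gene is said to have risen or fallen where its adjusted p was under 0.05. Park7 averaged 31.7 ± 5.46 CPM in KO at 29 °C, against 118 ± 11 CPM in WT at 29 °C, and 28.2 ± 4.03 CPM in KO at room temperature, against 109.9 ± 1.65 CPM in WT at room temperature (SD, n = 3, 4, 4 and 4). The deepest library, KO at 29 °C replicate 1, had a total estimated count of 38801000, and the other 14 had 23977400 to 26789200. Mitochondrially encoded transcripts made up 25.8% to 26.9% of counts in KO at 29 °C, against 30.2% to 41.6% in WT at 29 °C, and 22.7% to 27.4% in both groups at room temperature. Skeletal muscle markers took 0.0541% of counts in KO at 29 °C replicate 2, 0.18% in KO at 29 °C replicate 3 and 0.144% in WT at 29 °C replicate 2. They took at most 0.00118% in each of the other libraries. The 8 brown adipocyte markers were detected in every group and took 0.373% to 1.39% of counts.

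In the GRCm38 build, the mm10 of the submitters' processing notes, Phgdh lies on the minus strand at chr3:98313170-98339990 and Mthfd2 on the minus strand at chr6:83305691-83325908. Mthfd1l, Shmt2 and Aldh1l2 all lie on chromosome 10, and Psat1, Psph, Shmt1 and Mthfd1 on chromosomes 19, 5, 11 and 12. The sources used here do not state whether counting used strand. The exons of Phgdh, Psat1, Mthfd2 and Mthfd1l overlapped no other gene's exons. Exons of the other 5 shared bases with a gene on the opposite strand, from 0.833% of the exonic bases of Mthfd1 to 10.4% of those of Psph (with Cct6a) and 14.1% of those of Aldh1l2 (with D10Wsu102e). Unless counting used strand, reads of the pair cannot be told apart in those stretches.

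RefSeq promoters (GRCm38.p6, 250 bases before to 50 after each start site) were matched for 8 of the 9 genes, with 9 promoters in all because Psat1 had 2. Aldh1l2 was not matched. Both strands were searched for 3 motifs. The antioxidant response element TGACNNNGC was in 2 of the 9, those of Phgdh and Psph, against 14.2% of the 14362 promoters of genes tested. The C/EBP-ATF response element TGATGNAA was in 0 of the 9 (2.43% of promoters of genes tested) and the E-box CACGTG in 0 of the 9 (9.5%). The promoters of Phgdh and Psph are printed with the match in capitals, next to that of Mthfd2, the gene with the largest KO difference, which held none of the 3 motifs. The match as printed begins in Phgdh at position -53 from the start site and in Psph at position 5, both on the strand opposite to the motif as spelled. A match describes these letters only.
Phgdh, chr3:98339920-98340219, minus strand: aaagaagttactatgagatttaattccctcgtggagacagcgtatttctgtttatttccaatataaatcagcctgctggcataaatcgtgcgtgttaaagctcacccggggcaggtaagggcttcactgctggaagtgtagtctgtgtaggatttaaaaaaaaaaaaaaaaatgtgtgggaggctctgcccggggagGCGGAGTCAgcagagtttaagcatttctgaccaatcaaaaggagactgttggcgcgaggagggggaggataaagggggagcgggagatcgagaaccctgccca
Psph, chr5:129787204-129787503, minus strand: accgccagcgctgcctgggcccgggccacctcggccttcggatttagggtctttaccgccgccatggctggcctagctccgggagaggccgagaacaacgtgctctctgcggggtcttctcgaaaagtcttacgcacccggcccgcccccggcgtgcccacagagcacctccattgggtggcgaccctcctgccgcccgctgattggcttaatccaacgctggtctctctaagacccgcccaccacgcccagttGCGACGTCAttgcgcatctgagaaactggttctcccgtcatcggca
Mthfd2, chr6:83317555-83317854, minus strand: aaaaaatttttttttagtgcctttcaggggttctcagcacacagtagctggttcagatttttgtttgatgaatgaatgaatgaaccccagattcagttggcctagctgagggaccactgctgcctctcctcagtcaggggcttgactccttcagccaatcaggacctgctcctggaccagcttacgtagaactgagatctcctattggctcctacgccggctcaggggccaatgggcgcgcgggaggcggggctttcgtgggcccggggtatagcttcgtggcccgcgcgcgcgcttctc

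Before any comparison, the 9 genes can be ranked by CPM per kilobase of transcript, a level that allows for transcript length. In KO at 29 °C, Phgdh came first at 28.95 ± 7.48 CPM per kilobase, and in WT at 29 °C it was also first at 21.1 ± 3.78. Its range did not overlap that of the next gene, Psph, in either group. At room temperature Psph came first, at 23.9 ± 3.54 in KO and 22.4 ± 1.34 in WT, and Phgdh had rank 5, at 3.57 ± 2.23 in KO and 3.55 ± 0.731 in WT (SD). The cytosolic pair Shmt1 and Mthfd1 followed Psph at room temperature, with 12.95 and 11.3 CPM per kilobase in KO and 12.7 and 10.2 in WT. Shmt2, the mitochondrial partner of Shmt1, varied least of the 9 across the libraries, with 7.78, 5.84, 6.75 and 7.04 CPM per kilobase in KO at 29 °C, WT at 29 °C, KO at room temperature and WT at room temperature.

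In KO at 29 °C, Psph, Mthfd2, Shmt1, Mthfd1 and Shmt2 took ranks 2 to 6 in that order, at 10.4 to 7.78 CPM per kilobase, and each overlapped the next of the 5. In WT at 29 °C, Mthfd2 had rank 6 at 2.92 ± 1.14 and overlapped Psat1 at 2.52 ± 0.605. Mthfd1l and Aldh1l2 came last in all 4 groups, at 0.0603 to 0.408 CPM per kilobase. Their ranges overlapped in every group except KO at 29 °C.

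**Figure D1:**
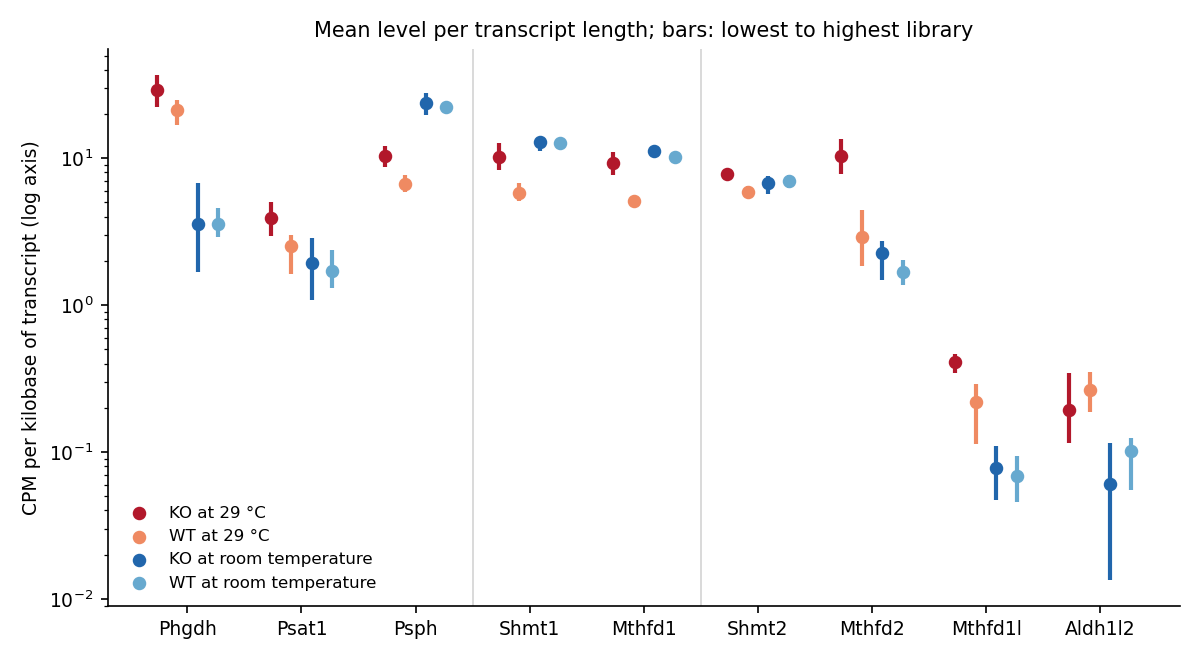
Mean level of each of the 9 genes in CPM per kilobase of transcript (log axis) in KO at 29 °C, WT at 29 °C, KO at room temperature and WT at room temperature. Points are group means and bars run from the lowest to the highest library (n = 3, 4, 4 and 4). Grey lines part the serine synthesis, cytosolic folate and mitochondrial folate enzymes. Phgdh stood at 28.95 and 21.1 in the groups at 29 °C and at 3.57 and 3.55 in those at room temperature, and Mthfd1l and Aldh1l2 were lowest throughout.

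The comparison of KO with WT at 29 °C asked how loss of DJ-1 changed brown fat with little demand for heat. Of the 9 genes, 6 rose and none fell: Psph, both cytosolic enzymes Shmt1 and Mthfd1, and the mitochondrial enzymes Shmt2, Mthfd2 and Mthfd1l. Mthfd2 rose most, to 3.55 times the WT level. Phgdh, Psat1 and Aldh1l2 did not pass the test. Across all genes tested 44.7% were called, 24.7% higher and 20.0% lower. The median log2 fold change was 0.65 over the 9 and 0.04 over all genes tested.

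Mthfd2, which oxidises the folate-bound carbon in mitochondria, measured 28, 20.6 and 16.3 CPM in the KO libraries, against 9.26, 6.44, 3.84 and 4.80 CPM in the WT libraries. Every KO library lay above every WT library. The log2 fold change was 1.83 ± 0.27 (adjusted p = 7.3e-05). Mthfd1l, which releases formate at the next mitochondrial step, had 72, 34 and 44 counts (1.71, 1.28 and 1.53 CPM) in KO and 12, 32, 21 and 25 counts (0.416, 1.06, 0.726 and 1.01 CPM) in WT. The groups did not overlap, and the log2 fold change was 0.91 ± 0.32 (adjusted p = 0.0301). The call was lost when KO replicate 1 (adjusted p = 0.104), KO replicate 3 (0.0614), WT replicate 1 (0.0809) or WT replicate 3 (0.0637) was left out. With only the libraries compared (adjusted p = 0.0661) or with no filter on low counts (0.0678) it was lost too.

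Shmt2, the mitochondrial serine hydroxymethyltransferase, measured 18.1, 18.6 and 16.7 CPM in KO and 14.7, 13.0, 13.2 and 12.5 CPM in WT. The groups did not overlap, at a log2 fold change of 0.41 ± 0.11 (adjusted p = 0.0072), and of the 6 called genes only Shmt2 changed by less than 1.5-fold. Without the 3 libraries with muscle transcripts it no longer passed (0.35, adjusted p = 0.168), nor did Mthfd1l (1.19, adjusted p = 0.0762), which left 4 called genes. That fit has 1 KO library at 29 °C, which is assumed to vary like the other groups. Aldh1l2, the NADPH-making branch, had 87, 19 and 20 counts in KO (2.07, 0.714 and 0.693 CPM) and 54, 37, 61 and 28 counts in WT (1.87, 1.23, 2.11 and 1.13 CPM). KO replicate 1 lay near the top of the WT range and the other 2 KO libraries below it, and the log2 fold change of -0.43 ± 0.46 did not pass (adjusted p = 0.482).

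The cytosolic enzymes were higher in KO by similar amounts. Shmt1 measured 27.5, 36.0 and 23.7 CPM in KO, against 15.2, 14.7, 19.3 and 17.4 CPM in WT (log2 fold change 0.81 ± 0.13, adjusted p = 1.5e-04). Mthfd1 measured 29.6, 35.5 and 24.8 CPM in KO, against 17.1, 16.9, 16.4 and 15.7 CPM in WT (0.86 ± 0.10, adjusted p = 9.4e-06). In both genes all KO libraries lay above all WT libraries, with KO replicate 2 highest.

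Among the serine synthesis enzymes, only Psph, the phosphatase of the last step, passed. Psph measured 20.9, 18.0 and 15.1 CPM in KO and 13.2, 12.2, 10.2 and 10.8 CPM in WT, with no overlap (0.63 ± 0.13, adjusted p = 0.00109). Phgdh, the dehydrogenase of the first step, measured 70.2, 51.8 and 42.4 CPM in KO and 47.1, 44.9, 36.0 and 32.1 CPM in WT. The groups overlapped, and the log2 fold change of 0.45 ± 0.34 did not pass (adjusted p = 0.298). Psat1, the aminotransferase between them, measured 13.1, 10.1 and 7.76 CPM in KO and 7.04, 7.87, 7.16 and 4.28 CPM in WT, also with overlap (0.65 ± 0.30, adjusted p = 0.0935). It passed when KO replicates 2 and 4 at room temperature, which do not enter the comparison but share its estimate of spread, were left out (adjusted p = 0.0474).

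**Figure D2:**
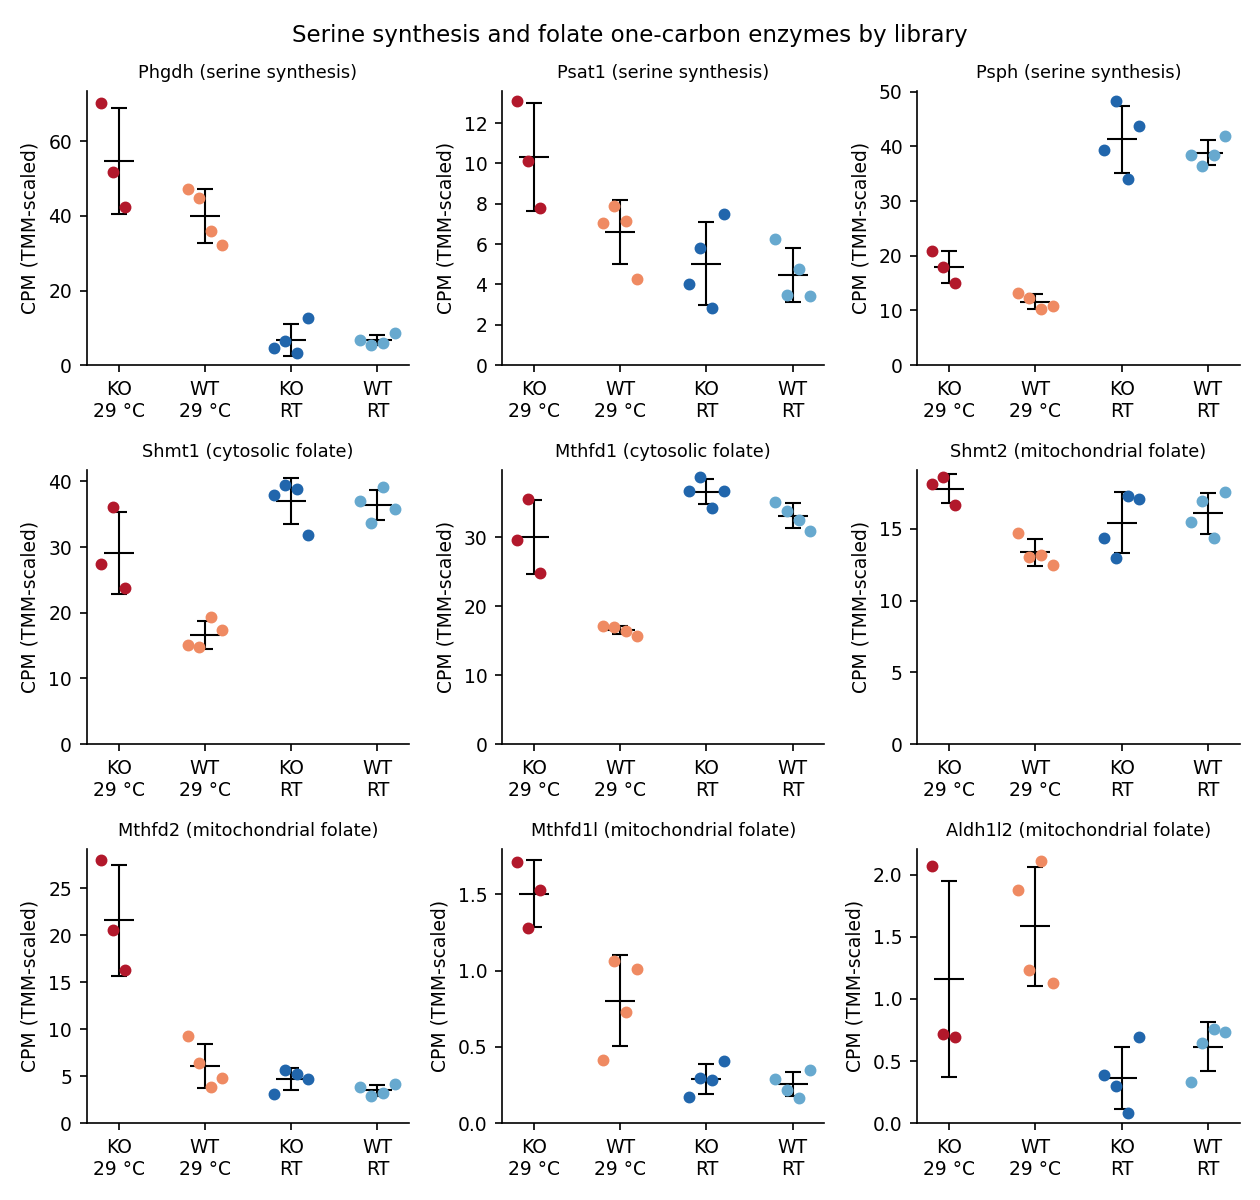
CPM of each of the 9 genes in every library of KO at 29 °C, WT at 29 °C, KO at room temperature (RT) and WT at room temperature. Points are libraries in replicate order, and bars are the mean ± SD (n = 3, 4, 4 and 4). In Mthfd2 the 3 KO libraries at 29 °C, at 16.3 to 28 CPM, stood above the other 12, and in Shmt1 and Mthfd1 the 4 WT libraries at 29 °C were the lowest.

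Markers of other cells moved in the same comparison, in which 24.7% of all genes tested were higher and 20.0% lower. All 8 lymphocyte markers were tested and 7 rose in KO at 29 °C. They took 0.00221% to 0.00294% of counts there, against 0.000561% to 0.000824% in WT at 29 °C. Of 8 macrophage markers 3 rose and 1 fell, not far from what all genes tested gave. Their shares of counts overlapped, at 0.0227% to 0.0363% in KO and 0.0172% to 0.0243% in WT. All 8 endothelial markers fell, with shares of 0.0641% to 0.0902% in KO and 0.163% to 0.194% in WT. Of the 8 brown adipocyte markers 6 rose and 1 fell, among them Ucp1, which averaged 7233 CPM in KO and 1019 CPM in WT at 29 °C. None of the 8 cell division markers passed (shares of 0.00128% to 0.00326% in KO and 0.00155% to 0.00308% in WT), and none of these lists had a marker at 0 throughout either group. The part of these cell types in the levels of the 9 genes was not tested. When the library totals left out the mitochondrial genome, whose share was lower in KO at 29 °C, the same number, 6, was called.

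The same comparison at room temperature, where the tissue works against mild cold, gave no called member. Adjusted p ran from 0.599 (Mthfd2) to 0.997 (Phgdh), and 0 of the 9 reached an unadjusted p under 0.05. DESeq2 and limma-voom called 0 of the 9 as well. Across all genes tested 0.239% were called, which was 36 genes, and 1678 (11.1%) had an unadjusted p under 0.05. The median log2 fold change was 0.09 over the 9 and 0.01 over all genes tested.

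At room temperature Mthfd2 measured 3.10, 5.69, 5.24 and 4.75 CPM in KO and 3.81, 2.88, 3.23 and 4.20 CPM in WT (log2 fold change 0.41 ± 0.27). Shmt1 averaged 37.0 ± 3.48 CPM in KO and 36.4 ± 2.34 CPM in WT, Mthfd1 36.6 ± 1.83 and 33.1 ± 1.82 CPM, and Psph 41.3 ± 6.13 and 38.8 ± 2.31 CPM (SD, n = 4 each). All 9 genes overlapped between the genotypes. Phgdh and Psat1 spread widely among the KO libraries. Phgdh measured 4.65, 6.45, 3.18 and 12.8 CPM in KO and 6.87, 5.5, 5.92 and 8.62 CPM in WT, with a coefficient of variation of 62.3% in KO and 20.6% in WT. Psat1 measured 4.01, 5.82, 2.82 and 7.48 CPM in KO and 6.25, 3.48, 4.74 and 3.42 CPM in WT. In both genes, and in Psph (39.4, 48.3, 34.0 and 43.7 CPM in KO), KO replicates 2 and 4 were the highest of the 4 KO libraries. Those 2 libraries also stood apart in brown adipocyte markers, which took 0.855% and 0.775% of their counts, against 1.30% and 1.24% in KO replicates 1 and 3. Ucp1 measured 4953 and 4778 CPM in replicates 2 and 4, and 9644 and 8630 CPM in replicates 1 and 3. The part of this in the levels of the 9 genes was not tested. Without replicates 2 and 4, whose removal lowers the KO mean of these 3 genes by construction, the log2 fold changes were -0.78 for Phgdh, -0.39 for Psat1 and -0.08 for Psph, none called.

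Mthfd1l and Aldh1l2 had very few counts at room temperature. Mthfd1l had 4, 7, 7 and 10 counts in KO and 7, 5, 4 and 8 in WT, and it would not have passed the filter on those 8 libraries alone. Aldh1l2 had 9, 7, 2 and 17 counts in KO and 8, 15, 18 and 17 in WT. Neither passed the test between genotypes, with SEs of 0.40 and 0.52 on the log2 scale.

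The comparison of 29 °C with room temperature in WT asked what warm housing changed in control tissue. Of the 9 genes 8 passed, 4 higher and 4 lower at 29 °C, with both cytosolic enzymes lower and 3 of 4 mitochondrial enzymes higher. Phgdh rose most, 5.95-fold, and Mthfd1l, Aldh1l2 and Mthfd2 rose as well. The 4 higher include Mthfd1l, which passed the filter on low counts only through the libraries at 29 °C, where it was higher. Psph fell most, by 3.34-fold, and Shmt1, Mthfd1 and Shmt2 fell. Across all genes tested 68.8% were called, 35.9% higher and 32.8% lower. The median of the absolute log2 fold change was 1.13 over the 9 and 0.68 over all genes tested.

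Phgdh measured 47.1, 44.9, 36.0 and 32.1 CPM in WT at 29 °C, against 6.87, 5.5, 5.92 and 8.62 CPM in WT at room temperature, with a wide gap between the groups (2.57 ± 0.34, adjusted p = 2.0e-05). Psph measured 13.2, 12.2, 10.2 and 10.8 CPM at 29 °C, against 38.5, 36.4, 38.5 and 42.0 CPM at room temperature (-1.74 ± 0.12, adjusted p = 6.4e-09). Psat1 averaged 6.59 ± 1.58 CPM at 29 °C and 4.47 ± 1.33 CPM at room temperature and did not pass (0.56 ± 0.29, adjusted p = 0.0984). It passed without WT at 29 °C replicate 4 (adjusted p = 0.0402) or WT at room temperature replicate 1 (0.0389). It also passed with only the libraries compared (0.0474) and when library totals alone were used for scaling (0.0140). The first and last enzyme of the serine route therefore moved in opposite directions with housing. Phgdh was higher and Psph lower at 29 °C under all scalings tried.

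Of the cytosolic folate enzymes, Shmt1 averaged 16.6 ± 2.12 CPM at 29 °C and 36.4 ± 2.34 CPM at room temperature (-1.13 ± 0.12, adjusted p = 7.0e-07). Mthfd1 averaged 16.5 ± 0.615 CPM at 29 °C and 33.1 ± 1.82 CPM at room temperature (-1.0 ± 0.10, adjusted p = 1.7e-07). Both were at about the same fraction of their room-temperature level, 2.19-fold and 2.0-fold lower, with no overlap. Of the mitochondrial enzymes, Mthfd1l had 12 to 32 counts per library at 29 °C and 4 to 8 at room temperature (1.64 ± 0.36, adjusted p = 6.8e-04), and Aldh1l2 had 28 to 61 and 8 to 18 (1.36 ± 0.46, adjusted p = 0.0151). Neither overlapped.

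Mthfd2 measured 9.26, 6.44, 3.84 and 4.80 CPM in WT at 29 °C and 3.81, 2.88, 3.23 and 4.20 CPM in WT at room temperature. The groups overlapped, and the rise (0.79 ± 0.26, adjusted p = 0.0152) was lost without WT at 29 °C replicate 1 (0.52, adjusted p = 0.0664). Shmt2 averaged 13.4 ± 0.960 CPM at 29 °C and 16.1 ± 1.43 CPM at room temperature, with overlap (-0.27 ± 0.11, adjusted p = 0.033). The fall of Shmt2 was lost without any 1 of 5 WT libraries and turned to 0.09 when library totals alone were used for scaling. That scaling moved the median log2 fold change of all genes tested to 0.41, against 0.06 with TMM, and raised the share of calls that were higher at 29 °C to 71.6%, against 52.3%.

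**Figure D3:**
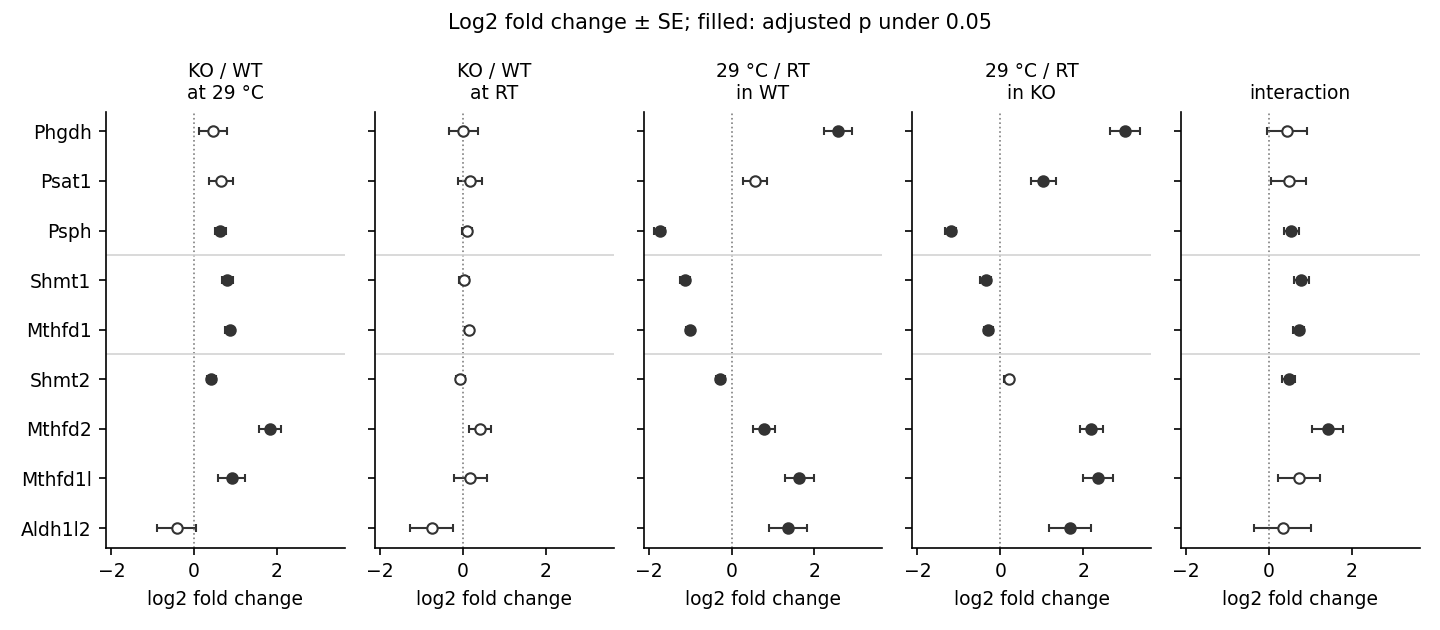
Log2 fold change ± SE of each of the 9 genes in KO against WT at 29 °C and at room temperature (RT), in 29 °C against room temperature in WT and in KO, and in the genotype by housing interaction (the KO effect at 29 °C minus that at room temperature). Filled points passed an adjusted p of 0.05 in edgeR's quasi-likelihood test. At room temperature no point is filled. In WT, Psph, Shmt1, Mthfd1 and Shmt2 lie left of 0 and the other 5 lie right of it.

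Warm housing in KO, a comparison that shares its 29 °C libraries with the KO against WT comparison, changed 8 of the 9, 5 higher and 3 lower. Across all genes tested 46.0% were called, 24.3% higher and 21.7% lower. Phgdh measured 70.2, 51.8 and 42.4 CPM in KO at 29 °C, against 4.65, 6.45, 3.18 and 12.8 CPM in KO at room temperature (3.02 ± 0.36, adjusted p = 3.1e-05). Mthfd2 measured 28, 20.6 and 16.3 CPM at 29 °C, against 3.10, 5.69, 5.24 and 4.75 CPM at room temperature (2.20 ± 0.27, adjusted p = 1.8e-05). Psph averaged 18.0 ± 2.88 CPM at 29 °C and 41.3 ± 6.13 CPM at room temperature (-1.20 ± 0.13, adjusted p = 5.5e-06). None of these 3 genes overlapped between housings.

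Mthfd1l had 72, 34 and 44 counts in KO at 29 °C, against 4, 7, 7 and 10 counts in KO at room temperature, with no overlap (2.36 ± 0.35, adjusted p = 7.0e-05). Here too Mthfd1l owed its place among the genes tested to the libraries at 29 °C. Aldh1l2 (1.69 ± 0.51, adjusted p = 0.0134) and Psat1 (1.04 ± 0.30, adjusted p = 0.0118) rose too, and both calls were lost without KO at 29 °C replicate 1 (0.94 for Aldh1l2 and 0.83 for Psat1). Shmt1 averaged 29.1 ± 6.30 CPM at 29 °C and 37.0 ± 3.48 CPM at room temperature (-0.35 ± 0.13, adjusted p = 0.0411). Mthfd1 averaged 30.0 ± 5.37 CPM at 29 °C and 36.6 ± 1.83 CPM at room temperature (-0.29 ± 0.10, adjusted p = 0.032). Both overlapped, and both calls were lost without KO at 29 °C replicate 1 or 3, or KO at room temperature replicate 1 or 2. The call of Mthfd1 was also lost without KO at room temperature replicate 4, and that of Shmt1 without WT at room temperature replicate 1 or 4. With library totals alone the values were -0.04 for Shmt1 and 0.02 for Mthfd1. Under that scaling the median of all genes tested was 0.35, against 0.04 with TMM, and 83.9% of calls were higher at 29 °C, against 52.8%. Shmt2 did not pass with TMM (0.21 ± 0.11, adjusted p = 0.148), and with library totals alone it rose (0.51, adjusted p = 0.0048).

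Markers of other cells rose in KO at 29 °C against KO at room temperature too: 8 of 8 lymphocyte, 8 of 8 cell division, 7 of 8 macrophage, 5 of 8 endothelial and 7 of 10 skeletal muscle markers, with 0 lower in each list. Lymphocyte markers took 0.00221% to 0.00294% of counts at 29 °C and 0.000252% to 0.000508% at room temperature, and macrophage markers 0.0227% to 0.0363% and 0.00508% to 0.00976%. Cell division markers took 0.00128% to 0.00326% and 0.000109% to 0.000355%, endothelial markers 0.0641% to 0.0902% and 0.0378% to 0.0518%, and skeletal muscle markers 0.00118% to 0.18% and 0.000105% to 0.000122%. Of the brown adipocyte markers 1 of 8 fell and 0 rose (1.15% to 1.39% and 0.775% to 1.30%). At room temperature 2 of the 10 skeletal muscle markers were at 0 in all KO libraries. The part of these cell types in the differences of the 9 genes was not tested.

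The genotype by housing interaction tested whether the KO effect differed between 29 °C and room temperature. It was called in 5 of the 9, all with a larger KO effect at 29 °C, where 28.3% of all genes tested were called (16.0% higher and 12.3% lower). The largest was in Mthfd2 (1.42 ± 0.38, adjusted p = 0.0117), followed by Shmt1 (0.78 ± 0.18, adjusted p = 0.00453), Mthfd1 (0.71 ± 0.14, adjusted p = 0.00154), Psph (0.54 ± 0.18, adjusted p = 0.0317) and Shmt2 (0.47 ± 0.15, adjusted p = 0.0311). Those of Mthfd2, Shmt1 and Mthfd1 passed whichever library was left out, and those of Psph and Shmt2 were each lost on leaving out any 1 of 7 libraries, with adjusted p up to 0.108 and 0.0754. The interactions of Phgdh (0.44 ± 0.49), Psat1 (0.48 ± 0.42), Mthfd1l (0.72 ± 0.52) and Aldh1l2 (0.33 ± 0.69) did not pass. That of Phgdh passed without the 2 KO libraries that stood apart at room temperature (1.24, adjusted p = 0.0183). Removing those libraries lowers the KO mean of Phgdh at room temperature by construction, which raises its interaction. With any 1 library left out, the interaction of Phgdh did not pass.

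Mitochondrial and cytosolic enzymes of the same step were set against each other as count ratios within each library, which do not depend on library scaling. Shmt2 to Shmt1 averaged 0.627 ± 0.0969 in KO at 29 °C, 0.816 ± 0.136 in WT at 29 °C, 0.423 ± 0.0891 in KO at room temperature and 0.446 ± 0.0638 in WT at room temperature. Mthfd2 to Mthfd1 averaged 0.727 ± 0.193, 0.366 ± 0.132, 0.129 ± 0.0310 and 0.108 ± 0.0214 in the same groups, and Mthfd1l to Mthfd1 averaged 0.0523 ± 0.0138, 0.0499 ± 0.0187, 0.00847 ± 0.00260 and 0.00837 ± 0.00266 (SD, n = 3, 4, 4 and 4). Each ratio leaned more to the mitochondrial enzyme at 29 °C than at room temperature in the same genotype. The ratios are not adjusted for transcript length, so a value under 1 does not say which transcript was more abundant.

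In WT all 4 libraries at 29 °C lay above all 4 at room temperature for each of the 3 ratios, by 1.83-fold for Shmt2 to Shmt1, 3.29-fold for Mthfd2 to Mthfd1 and 5.79-fold for Mthfd1l to Mthfd1. Each gave p = 0.0286 in an exact permutation test (two-sided), the smallest that 70 arrangements allow, and 0.0686 after adjustment over the 12 ratio tests. In KO the ratios Mthfd2 to Mthfd1 (5.65-fold) and Mthfd1l to Mthfd1 (6.24-fold) also parted the housings fully, at the smallest p that 35 arrangements allow (exact permutation test, p = 0.0286, adjusted 0.0686), while Shmt2 to Shmt1 overlapped (1.49-fold, exact p = 0.0857). No ratio passed the adjustment. The ratio with Mthfd1l holds a gene that passed the filter on low counts only through the libraries at 29 °C.

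Between genotypes at 29 °C, Mthfd2 to Mthfd1 was 0.946, 0.580 and 0.657 in the KO libraries and 0.542, 0.381, 0.235 and 0.306 in the WT libraries, 2.04-fold higher with no overlap (exact permutation test, two-sided, p = 0.0571, adjusted p = 0.114). Shmt2 to Shmt1 was 0.660, 0.517 and 0.702 in KO and 0.973, 0.885, 0.685 and 0.721 in WT, with overlap (0.769-fold, exact p = 0.143). Mthfd1l to Mthfd1 overlapped too (1.09-fold, exact permutation test, adjusted p = 0.904). At room temperature all 3 ratios overlapped between genotypes, at 0.941-fold to 1.19-fold of WT (exact p = 0.371 to 0.971).

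**Figure D4:**
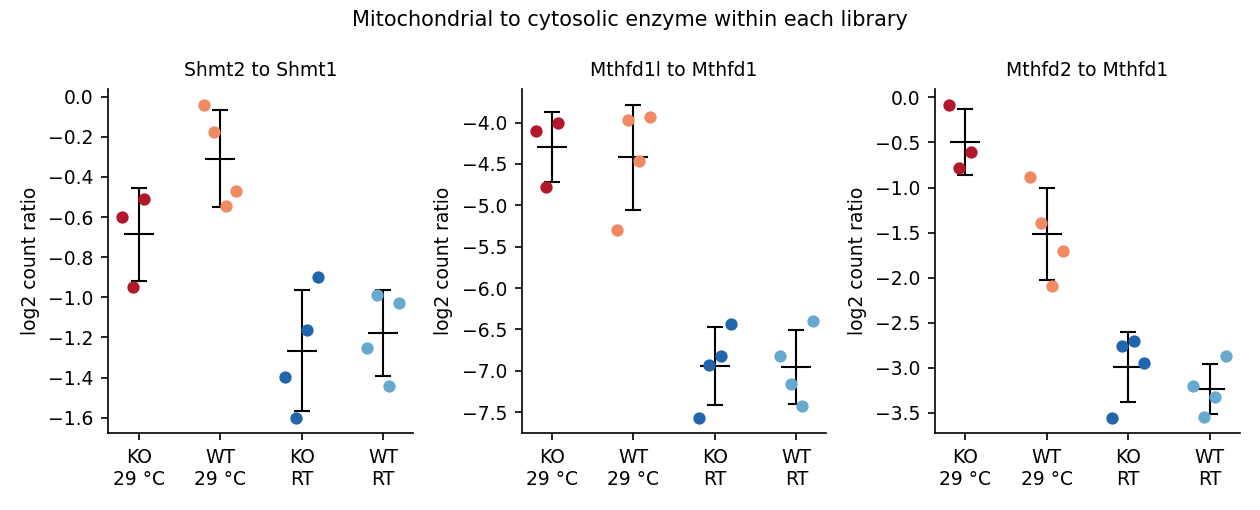
Log2 of the count ratio of mitochondrial to cytosolic enzyme in every library for Shmt2 to Shmt1, Mthfd1l to Mthfd1 and Mthfd2 to Mthfd1, in KO at 29 °C, WT at 29 °C, KO at room temperature (RT) and WT at room temperature. Points are libraries and bars the mean ± SD (n = 3, 4, 4 and 4). A pseudocount of 0.5 was added to each count. For both ratios to Mthfd1 the 7 libraries at 29 °C lie above the 8 at room temperature.

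The other genes around the pathway were counted in 10 lists, to be read against the 24.7% of all genes tested that were higher and the 20.0% that were lower in KO at 29 °C. In KO against WT at 29 °C, folate uptake, retention and mitochondrial import had 3 of 6 tested genes higher and 1 lower (median log2 fold change 0.26, against 0.04 over all genes tested). The reduced folate carrier Slc19a1 rose to 24.3 CPM in KO, against 9.61 CPM in WT (1.33 ± 0.21, adjusted p = 1.4e-04), and the mitochondrial folate carrier Slc25a32 to 27.1 CPM, against 19.0 CPM (0.51 ± 0.15, adjusted p = 0.0125). The macrophage folate receptor Folr2 fell (-0.94 ± 0.34, adjusted p = 0.0333). In the rest of the folate cycle 0 of 7 tested genes rose. Mthfd2l, the paralog of Mthfd2, measured 4.35 CPM in KO and 3.99 CPM in WT and did not pass (0.12 ± 0.16, adjusted p = 0.561).

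Downstream of the folate pool, purine synthesis had 6 of 13 genes higher and 1 lower, among them Atic (1.09 ± 0.11, adjusted p = 1.7e-06), which uses formyl-folate in the closing steps of the ring, and Gmps, Adsl and Paics (0.92, 0.53 and 0.64). Of the transsulfuration and glutathione synthesis genes 3 of 4 rose: Gclm (1.27 ± 0.13, adjusted p = 2.9e-06) and Gclc (0.70), the subunits of glutamate-cysteine ligase, and Gss (0.78), glutathione synthetase. The methionine cycle had 2 of 8 higher (Mat2b and Ahcy), near the share of all genes tested, and 0 lower. Glycine cleavage had Dld higher (1.06) and Amt lower (-0.78) of 3 tested, and choline-derived supply had Aldh7a1 higher (0.68) of 3 tested.

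Serine and glycine transport had 4 of 12 higher and 2 lower. Sfxn1, the mitochondrial serine carrier, averaged 70.4 CPM in KO and 39.6 CPM in WT (0.83 ± 0.12, adjusted p = 4.7e-05), and the glycine transporter Slc6a9 4.55 and 1.26 CPM (1.85 ± 0.31, adjusted p = 2.1e-04). Serine use and breakdown had 4 of 9 higher, with Serinc1 (1.01) and the phosphatidylserine synthase Ptdss2 (1.03), and 3 lower, with Serinc5 (-0.82) and Sptlc2 (-0.63), a subunit of the enzyme that joins serine to palmitoyl-CoA. Median log2 fold changes of these lists ran from -0.07 (glycine cleavage) to 0.74 (transsulfuration and glutathione synthesis). Slc25a38, a mitochondrial glycine carrier, was among those that fell (-0.46).

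ATF4 and its targets outside the pathway had 6 of 15 higher and 2 lower, at a median of 0.60. Asparagine synthetase, Asns, averaged 71.7 CPM in KO and 29.0 CPM in WT (1.30 ± 0.13, adjusted p = 1.7e-06), and the stress hormone Gdf15 18.8 and 1.67 CPM (3.49 ± 0.49, adjusted p = 8.8e-05). Atf4 itself averaged 163 ± 29.2 CPM in KO at 29 °C and 202 ± 35.5 CPM in WT at 29 °C, which did not pass (-0.31 ± 0.22, adjusted p = 0.277). At room temperature no gene of any of the 10 lists was called in KO against WT by edgeR's test, where 0.239% of all genes tested were called.

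**Figure D5:**
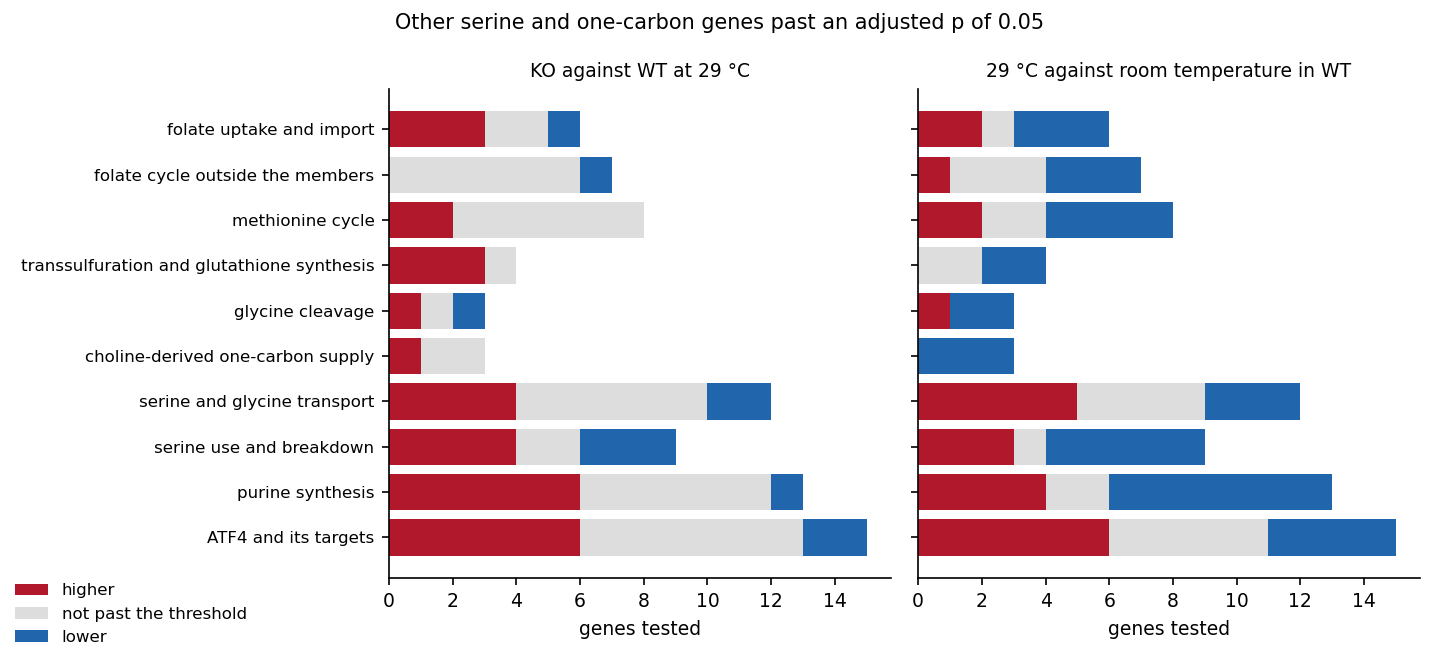
Number of genes tested in each of 10 lists of genes around the pathway and outside the 9. The last list holds ATF4 and its targets outside the one-carbon pathway. Bars are split by the outcome of edgeR's quasi-likelihood test in KO against WT at 29 °C and in 29 °C against room temperature in WT. Red counts genes higher and blue genes lower at an adjusted p under 0.05, and grey those that did not pass. In purine synthesis the left panel has 6 higher and 1 lower, and the right panel 4 higher and 7 lower.

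In 29 °C against room temperature in WT, a comparison that shares the WT libraries at 29 °C with the one above, the same lists held calls both ways, where 35.9% of all genes tested were higher and 32.8% lower. Purine synthesis had 4 of 13 higher and 7 lower, with Atic at 12.5 CPM at 29 °C and 25.7 CPM at room temperature (-1.04 ± 0.10, adjusted p = 1.6e-07). Slc25a32 (-1.75), Sfxn1 (-1.90), Slc19a1 (-1.24) and Dld (-1.94) fell. The cytosolic formyl-folate dehydrogenase Aldh1l1, the counterpart of Aldh1l2, averaged 18.8 CPM at 29 °C and 79.4 CPM at room temperature (-2.08 ± 0.18, adjusted p = 7.5e-08). Choline-derived supply had 3 of 3 lower. Atf4 rose (0.94 ± 0.21, adjusted p = 9.3e-04) and 6 of 15 of the ATF4 list rose while 4 fell, among them Asns (-0.92 ± 0.12), both near the shares of all genes tested.

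The same housing comparison also moved markers of cell types. In WT at 29 °C against WT at room temperature all 8 cell division, all 8 macrophage and all 8 endothelial markers rose, and 7 of 8 brown adipocyte markers fell. Of the lymphocyte markers 4 of 8 rose, and of the skeletal muscle markers 7 of 10, with 0 lower in each list. Lymphocyte markers took 0.000561% to 0.000824% of counts at 29 °C and 0.000238% to 0.000334% at room temperature. Skeletal muscle markers took 0.00023% to 0.144% at 29 °C, the highest in replicate 2. Cell division markers took 0.00155% to 0.00308% of counts at 29 °C and 0.000163% to 0.000260% at room temperature, macrophage markers 0.0172% to 0.0243% and 0.00537% to 0.00867%, and brown adipocyte markers 0.373% to 0.504% and 1.14% to 1.29%. Their part in the housing differences of the 9 genes was not tested.

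Likeness of pattern was measured as the root-mean-square difference of log2 CPM, each gene centred on its own mean over the 15 libraries, among 11897 genes averaging 1 CPM or more. Shmt1 and Mthfd1 were the closest pair among the 9, at 0.153. Genes outside the 9 lay closer to each, with Mthfd1 at rank 46 for Shmt1 and Shmt1 at rank 138 for Mthfd1. Phgdh lay closest to Cd300c2 (0.487), Irf8 (0.489) and Eya2 (0.510), and its closest gene of the 9 was Mthfd2 at 1.01, rank 852. Mthfd2 lay closest to Spn (0.395), Gbp2 (0.419) and Fcgr4 (0.426). Spn averaged 6.45 ± 1.23 CPM in KO at 29 °C, 1.87 ± 0.423 CPM in WT at 29 °C, 1.39 ± 0.541 CPM in KO at room temperature and 0.720 ± 0.102 CPM in WT at room temperature (SD). Shmt2, whose own SD over the libraries was 0.19 on the log2 scale, lay closest to Bap1 (0.114), Mrps28 and Mrps15 (both 0.116). These distances describe likeness over 15 libraries that share 4 groups.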

How the data were processed

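Brown adipose tissue RNA was sequenced in 15 libraries of 4 groups. The authors deposited RSEM expected counts, 1 estimated count per gene symbol and library, and the names of its 15 columns matched the sample labels. Per the submitters' processing notes, tools were STAR 2.7.10a, RSEM 1.2.28 and DESeq2 1.3.40 with mm10. Of the entries 7.26% had decimals, and values were rounded to whole counts. A spreadsheet had turned 24 symbols into dates, none of them among the 9 genes.

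Genes passing edgeR's filterByExpr by group (minimum count 10) numbered 15083. After TMM scaling, 1 model of the 4 groups with 11 residual degrees of freedom was fitted by robust quasi-likelihood (edgeR 4.0.16, limma 3.58.1, R 4.3.3) and checked on simulated data. P-values were adjusted by Benjamini-Hochberg within each of 4 pairwise comparisons and the interaction. Ratios used a pseudocount of 0.5 and an exact permutation test. Levels per kilobase used the principal transcript of each gene in GRCm38.

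The 9 genes, the lists and the naming rule were chosen with earlier results of these data known. The rule names the 9, Park7, Atf4, Mthfd2l and Ucp1, up to 4 genes per list with the smallest p in KO against WT at 29 °C, and the 3 closest patterns of Phgdh, Shmt2 and Mthfd2. Alternatives covered 14 other settings, among them DESeq2 1.42.0 and limma-voom, and leaving out each of the 15 libraries. Libraries of a group differed by more than sampling noise, so none was counted as a repeat. A gene that the naming rule selects is not reported here.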

Additional observations from a re-analysis of the deposited data

Results flagged for a closer look

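The KO effect differed between housing temperatures in 5 of the 9 genes, by the interaction term of edgeR's quasi-likelihood test with Benjamini-Hochberg adjustment. Of all genes tested 28.3% were called by the same term. The difference, the KO effect at 29 °C minus that at room temperature, was 1.42 for Mthfd2 on the log2 scale (1.83 at 29 °C and 0.41 at room temperature). It was 0.78 for Shmt1 (0.81 and 0.02), 0.71 for Mthfd1 (0.86 and 0.14), 0.54 for Psph (0.63 and 0.09) and 0.47 for Shmt2 (0.41 and -0.06). Groups of 4 libraries were screened for a library far from the others in each of the 9 genes, 27 groups in all, and 0 were marked by Dixon's criterion. The group of 3 libraries, KO at 29 °C, was not screened.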

How the results depend on the processing

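Over the 9 genes, 5 comparisons and 29 other settings, 1190 of 1295 results kept their direction and their side of the threshold, 75 lost the call, 7 gained one and 23 changed sign. With only the libraries compared, the interaction cannot be had, and Mthfd1l did not pass the filter at room temperature. In KO against WT at 29 °C, Psph, Shmt1, Mthfd1 and Mthfd2 rose and were called under each of the 29 settings, of which that without the 3 libraries with muscle transcripts has 1 KO library at 29 °C, assumed to vary like the other groups. At an adjusted p under 0.01 the called genes numbered 4 in 29 °C against room temperature in KO, 5 in that of WT and 2 in the interaction. The interaction was called in 3 genes with a 1.5-fold limit, with library totals alone (an alternative chosen after seeing the data) and with no filter on low counts. Leaving out 1 library gave 4 to 8 called genes for 29 °C against room temperature in KO and 3 to 5 for the interaction.

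Most sign changes were in KO against WT at room temperature, where nothing was called. Phgdh was -0.00098 with DESeq2, -0.16 with limma-voom, -0.0067 with no filter, -0.0020 without the 3 libraries with muscle transcripts and -0.50 to 0.23 on leaving out 1 library. Without KO replicates 2 and 4 at room temperature the values were -0.78 for Phgdh, -0.39 for Psat1, -0.083 for Psph and -0.15 for Mthfd1l. Leaving out 1 library gave -0.087 to 0.37 for Psat1, -0.022 to 0.36 for Mthfd1l, -0.013 to 0.089 for Shmt1 and -0.13 to 0.015 for Shmt2 there. The log2 ratio of Mthfd1l to Mthfd1 ran from -0.15 to 0.22 there and from -0.17 to 0.36 at 29 °C, and that of Shmt2 to Shmt1 from -0.21 to 0.024 at room temperature. Aldh1l2 was 0.20 in KO against WT at 29 °C without the 3 libraries with muscle transcripts, when KO replicate 1, the highest of the 3 KO libraries, alone is left, and its interaction ran from -0.41 to 0.85. With library totals alone Shmt2 was 0.085 in 29 °C against room temperature in WT, and Mthfd1 0.019 in that of KO. The cause of these shifts was not tested.

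Deviations of libraries with the same replicate number correlated at -0.28 to 0.33. With groups of 3 or 4 libraries, these values cannot settle whether the numbers pair the libraries, and the main fit used no pairing. With the replicate number as a block, Phgdh in KO against WT at room temperature was -0.066, and 7 genes were called in each housing comparison, the fall of Shmt2 in WT (-0.27) and that of Shmt1 in KO (-0.37) losing their calls.

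Over all genes, KO against WT at room temperature had 36 calls, against 237 with DESeq2, 20 with library totals alone, 13 without the muscle libraries, 5 without KO replicates 2 and 4, 4 at an adjusted p under 0.01 and 5 to 60 on leaving out 1 library. Of those calls 22.2% were higher, against 6.67% with RLE size factors. Without the muscle libraries, with 1 KO library at 29 °C, 4229 genes were called in KO against WT at 29 °C and 4129 in 29 °C against room temperature in KO. With a 1.5-fold limit those counts were 4182 and 4374, and at an adjusted p under 0.01 the interaction had 2304. Mthfd1l and Aldh1l2 had 2 to 87 counts per library, and counting error was not separated from library-to-library spread.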
